A study of Mus musculus with 354 samples.

Results

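The genes examined were 10 identity genes of leukocytes, macrophages and osteoclasts, namely Ptprc, Csf1r, Cd68, Adgre1, Tyrobp, Fcer1g, Itgam, C1qa, Acp5 and Ctsk. They were chosen by symbol, and all 10 had a row in the read counts of every cell, out of 55367 genes listed and 39201 genes with at least 1 count. The question was whether cells of the myeloid lineage lay among single GFP+ cells sorted from the neonatal mouse cochlea as supporting cells, and whether cells rich in Spp1 (osteopontin) and Mmp9 (a gelatinase), both of which macrophages and osteoclasts can also make, carried these genes. CA-ERBB2 pups had 3 transgenes, Fgfr3-iCre, TetON-CA-ErbB2 and, for the reporter, ROSA-floxed-rtTA/GFP, of which TetON-CA-ErbB2 encodes a constitutively active form of the receptor tyrosine kinase ERBB2. Control pups were littermates that carried Fgfr3-iCre and ROSA-floxed-rtTA/GFP but no TetON-CA-ErbB2. The treatment protocol, which is shared by both groups, gave tamoxifen at 75 mg/kg on postnatal days 0 and 1 and doxycycline at 100 mg/kg on day 2, and cochleae were collected on day 3. A separate treatment entry is given in the labels only for CA-ERBB2 cells. The Fgfr3 promoter drives iCre in a subset of supporting cells, so GFP marks cells with a history of that promoter's activity, and pups of unrecorded sex were pooled for each sort. Each genotype had 177 cells on 3 plates of 59 cells, and a plate was treated as 1 replicate sort, since the plate number in the sample name is the only replicate label and p-values therefore measure the spread between plates.

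Tissue macrophages are resident phagocytes that depend on the CSF1 receptor for survival and clear debris with the help of complement. Their receptors signal through small adaptor proteins, TYROBP (DAP12) and the Fc receptor gamma chain, which carry activation motifs in their cytoplasmic tails. Osteoclasts form by fusion of cells of the same lineage and resorb bone with an acid phosphatase and the protease cathepsin K. The developing cochlea holds resident macrophages in its connective tissue and nerve regions, and a bony capsule forms around it.

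Promoters of 4 members are shown because they let the reader see the letters of the core motif of PU.1, the factor that drives the myeloid programme, in genes that differed widely in where they were detected. Each sequence runs 5′ to 3′ on the gene's strand, from 250 bases before to 50 bases after the start site, taken from RefSeq for GRCm38.p6, and capitals mark GAGGAA or its reverse complement TTCCTC. The windows are chr11:69666121-69666420 on the minus strand for Cd68, chr1:171234300-171234599 on the minus strand for Fcer1g, chr7:128062390-128062689 on the plus strand for Itgam and chr3:95498960-95499259 on the plus strand for Ctsk.
Cd68: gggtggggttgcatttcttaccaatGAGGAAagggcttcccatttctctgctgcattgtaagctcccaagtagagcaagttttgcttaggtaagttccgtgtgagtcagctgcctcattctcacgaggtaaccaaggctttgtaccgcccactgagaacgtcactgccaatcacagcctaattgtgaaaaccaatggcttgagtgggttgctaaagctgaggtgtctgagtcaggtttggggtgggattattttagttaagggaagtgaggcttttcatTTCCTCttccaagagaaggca
Fcer1g: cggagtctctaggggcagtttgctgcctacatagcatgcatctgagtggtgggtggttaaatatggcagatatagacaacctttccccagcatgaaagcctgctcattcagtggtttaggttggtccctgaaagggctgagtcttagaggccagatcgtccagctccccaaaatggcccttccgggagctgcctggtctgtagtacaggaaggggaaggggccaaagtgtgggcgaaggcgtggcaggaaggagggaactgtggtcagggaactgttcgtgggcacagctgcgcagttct
Itgam: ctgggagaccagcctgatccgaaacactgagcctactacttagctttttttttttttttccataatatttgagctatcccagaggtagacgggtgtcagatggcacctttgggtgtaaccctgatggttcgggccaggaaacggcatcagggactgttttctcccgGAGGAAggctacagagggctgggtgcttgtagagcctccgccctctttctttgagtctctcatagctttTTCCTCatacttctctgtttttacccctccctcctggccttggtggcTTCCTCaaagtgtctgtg
Ctsk: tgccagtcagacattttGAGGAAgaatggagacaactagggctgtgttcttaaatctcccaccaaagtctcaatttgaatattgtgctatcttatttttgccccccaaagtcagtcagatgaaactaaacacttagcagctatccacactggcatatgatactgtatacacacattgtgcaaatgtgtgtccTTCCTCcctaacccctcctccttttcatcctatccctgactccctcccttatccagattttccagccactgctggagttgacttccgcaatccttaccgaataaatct
The motif occurred 2 times in the Cd68 window, 3 times in the Itgam window, 2 times in the Ctsk window and 0 times in the Fcer1g window. Promoter windows were matched for 6 of the 10 members, which had 9 start sites in all, and 4 of the 9 held the motif, against 28.3% of 32851 mouse promoter windows of the same length. The motif CATGTG or its reverse complement CACATG, which the osteoclast factor MITF can bind, was in 1 of the 9, an Acp5 start site, against 14.2% of all windows. Such matches describe letters only. Csf1r, Tyrobp, C1qa and Adgre1 are named only.

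All 10 are protein-coding genes. In GRCm38, Ptprc spans chr1:138062861-138175708 on the minus strand, Tyrobp chr7:30413760-30417585 on the plus strand, Adgre1 chr17:57358691-57483527 on the plus strand, C1qa chr4:136895917-136898803 on the minus strand and Acp5 chr9:22126727-22135711 on the minus strand. Exons of Csf1r overlap those of Hmgxb3 on the opposite strand, and exons of Acp5 overlap those of 6530413G14Rik on the opposite strand. Reads were counted by strand, but whether the libraries keep the strand of the RNA was not tested. Hmgxb3 had 13887 counts in all cells against 49596 for Csf1r, and 6530413G14Rik had 134 against 1606 for Acp5. The part that reads of these overlapping genes have in the Csf1r and Acp5 counts was not tested. Exons of Itgam overlap Gm49368 on its own strand, which had 4 counts in all cells against 3679 for Itgam.

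Counts assigned to genes ranged from 1443 to 5178221 per cell, with a median of 2866360, and fewer than 100000 were found for 2 cells of CA-ERBB2 and 33 of Control. Plate 1 of each genotype was richer in genes than the other plates, with medians of 10198 genes per CA-ERBB2 cell and 8679 per Control cell against medians between 1742 and 2954 on the other 4 plates. Wells A12 to D12 of every plate, 24 wells in all, stood apart with a median of 15538 genes against 3244 elsewhere, and results are given with and without them. The labels do not say whether each of these wells held 1 cell or several, and each is counted as a cell here. The labels call every cell a cochlear supporting cell. At least 3 of 13 supporting cell and epithelial markers reached 10 CPM (counts scaled to the same total in each cell) in 88 CA-ERBB2 cells (49.7%) and 84 Control cells (47.5%), while 38 and 51 cells had none of the 13. At least 3 of 11 mesenchyme and bone-forming cell markers reached that level in 99 CA-ERBB2 cells (55.9%) and 81 Control cells (45.8%). In cells outside the 88 and 84, fewer than 3 of the supporting cell markers reached 10 CPM, so the label did not go with its markers in every cell. For the cells with fewer than 100000 counts, most of them Control, an absent marker says little about the label.

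The leukocyte and macrophage genes were detected in a minority of cells of both genotypes, and the plates of the genotypes overlapped for each of the 10 members. Csf1r, Cd68 and Ctsk were detected in between 26 and 39 cells of each gene-rich first plate, whereas Ptprc, Adgre1, Itgam and Acp5 were each detected in 22 cells or fewer of both genotypes together. A cell was called positive with 1 count or more. An exact two-sided permutation test over the 3 plates of each genotype, which cannot go below 0.1, gave p between 0.2 and 1 for the 10 members, and 1 for each after Benjamini-Hochberg adjustment. For 0 of 10 members did the plate shares of the genotypes lie apart, against 1.47% of 21826 genes with every CA-ERBB2 plate above and 0.183% with every CA-ERBB2 plate below. Detection without molecular identifiers follows the depth of each cell, and intervals on shares of cells cover counting error only.

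**Figure D1:**
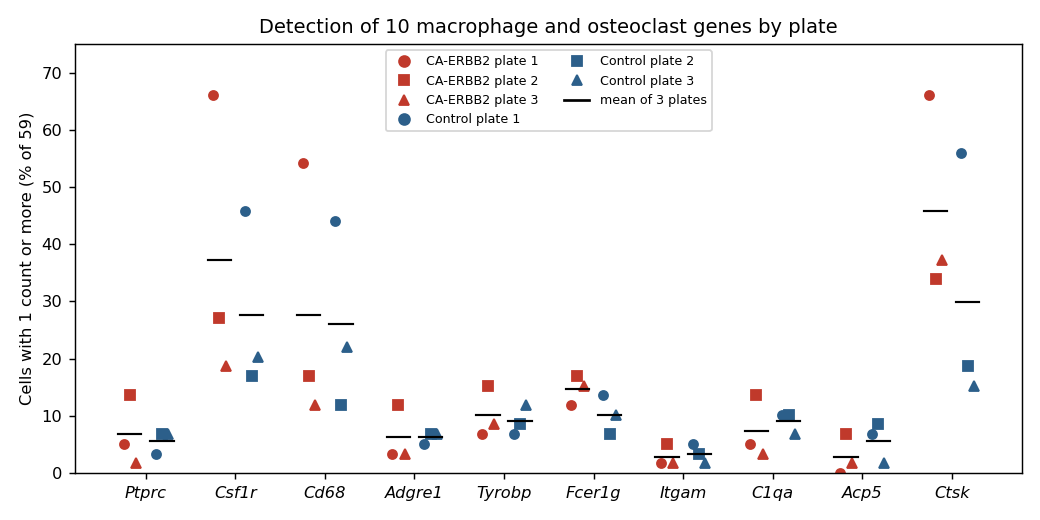
Share of the 59 cells of each plate with 1 count or more (y axis, %) for each of the 10 genes (x axis). Each symbol is a plate, red for CA-ERBB2 and blue for Control, and the bar is the mean of the 3 plates. Plate values of the genotypes overlap for every gene, and the first plate of each genotype is highest for Csf1r, Cd68 and Ctsk.

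Among the genes common to all leukocytes, Ptprc encodes the phosphatase CD45. It was detected in 3, 8 and 1 cells on CA-ERBB2 plates 1, 2 and 3 and in 2, 4 and 4 cells on the Control plates, which is 6.78% ± 6.11 against 5.65% ± 1.96 (SD, n = 3 plates, exact permutation p = 0.9). The counts of each plate were then summed and scaled (TMM), giving Ptprc levels of 0.433, 4.58 and 1.67 CPM on the CA-ERBB2 plates and 36.8, 8.47 and 6.79 CPM on the Control plates. All 3 Control sums lay above all 3 CA-ERBB2 sums, an order that 4.88% of the 21416 genes tested also had. The log2 fold change of CA-ERBB2 over Control was -2.96 ± 1.19 (SE), with an unadjusted p of 0.0318 and an adjusted p of 0.911 by the quasi-likelihood test of edgeR, adjusted by Benjamini-Hochberg. In such sums, fewer positive cells and less RNA per positive cell cannot be told apart, but the single cells show where the counts lay. The value without Control plate 1 was -1.78. The 16 cells with several of these genes at a high level, called macrophage-like and described with their criterion under co-detection, held 81.7% of the Ptprc counts of CA-ERBB2 cells and 98.0% of those of Control cells, as a description, since Ptprc was 1 of the genes that chose them.

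Tyrobp and Fcer1g encode the 2 adaptor chains. Tyrobp was detected in 4, 9 and 5 CA-ERBB2 cells against 4, 5 and 7 Control cells per plate, and Fcer1g in 7, 10 and 9 against 8, 4 and 6. The Fcer1g share was 14.7% ± 2.59 in CA-ERBB2 and 10.2% ± 3.39 in Control (SD, n = 3 plates, exact permutation p = 0.2), the smallest p of the 10. For both genes plate 1 had the lowest summed level of its genotype. Summed Tyrobp was 1.93, 189 and 148 CPM on the CA-ERBB2 plates and 49.4, 131 and 348 CPM on the Control plates. Summed Fcer1g was 3.68, 268 and 196 CPM against 70.8, 90.9 and 351 CPM. Both ranges overlapped between genotypes, with log2 fold changes of -0.64 ± 1.14 for Tyrobp and -0.14 ± 1.09 for Fcer1g (edgeR, SE).

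Itgam encodes the integrin CD11b of myeloid cells and was the scarcest leukocyte member. It was detected in 1, 3 and 1 CA-ERBB2 cells against 3, 2 and 1 Control cells. A single Control cell on plate 1 reached 1345 CPM, whereas the highest CA-ERBB2 cell was at 61.6 CPM. Sums were 0.044, 0.302 and 2.21 CPM in CA-ERBB2 and 14.0, 0.815 and 0.017 CPM in Control, and they overlapped. The log2 fold change of -2.54 ± 2.07 (edgeR, SE) became 1.03 without Control plate 1, the plate of that cell.

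Of the macrophage genes proper, Adgre1 encodes the surface receptor F4/80 and C1qa a chain of complement C1q. Adgre1 was detected in 2, 7 and 2 CA-ERBB2 cells against 3, 4 and 4 Control cells, 11 of 177 in each genotype. C1qa was detected in 3, 8 and 2 CA-ERBB2 cells against 6, 6 and 4 Control cells. For both genes CA-ERBB2 plate 2 was the highest plate by cells. The Adgre1 sums were 1.25, 24.9 and 16.2 CPM against 23.3, 57.0 and 52.8 CPM, and the C1qa sums 3.06, 124 and 30.2 CPM against 37.7, 86.0 and 221 CPM. Log2 fold changes were -1.65 ± 0.93 for Adgre1 and -1.14 ± 1.05 for C1qa (edgeR, SE), and neither passed the test. With the macrophage-like cells left out of the sums, the Adgre1 value was 1.99 in place of -1.65. The values of Csf1r (1.12), Fcer1g (2.00) and Tyrobp (0.16) also turned in sign. These genes were among those that chose the cells left out, so the turned signs are a description only.

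Csf1r, the receptor for CSF1 and IL-34, and Cd68, a lysosomal glycoprotein of phagocytes, were detected far more widely. Csf1r was found in 39, 16 and 11 CA-ERBB2 cells against 27, 10 and 12 Control cells, and Cd68 in 32, 10 and 7 against 26, 7 and 13. The Csf1r share was 37.3% ± 25.3 in CA-ERBB2 and 27.7% ± 15.7 in Control (SD, n = 3 plates, exact permutation p = 0.6). When each cell was thinned to 100000 counts, which left out the 2 CA-ERBB2 and 33 Control cells below that depth, the Csf1r shares were 22.9% and 25.7%, so no order is read from them. The Csf1r sums were 11.2, 117 and 44.0 CPM in CA-ERBB2 and 53.3, 72.1 and 72.2 CPM in Control, and the Cd68 sums 12.9, 57.5 and 40.5 CPM against 54.1, 74.8 and 142 CPM. Both sets of ranges overlapped, with log2 fold changes of -0.20 ± 0.74 for Csf1r and -1.29 ± 0.66 for Cd68 (edgeR, SE, unadjusted p = 0.0800 for Cd68). CA-ERBB2 plate 1 had the most Csf1r-positive cells and the lowest Csf1r sum, so the many positive cells of that plate held few counts each.

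The osteoclast genes behaved unlike each other. Acp5, the tartrate-resistant acid phosphatase, was detected in 0, 4 and 1 CA-ERBB2 cells against 4, 5 and 1 Control cells, with sums of 0, 6.18 and 0.078 CPM against 1.22, 5.30 and 0.033 CPM. Its highest cell was at 300 CPM in CA-ERBB2 and 177 CPM in Control. Ctsk, cathepsin K, was the most widely detected member, in 39, 20 and 22 CA-ERBB2 cells against 33, 11 and 9 Control cells, 45.8% ± 17.7 against 29.9% ± 22.6 (SD, n = 3 plates, exact permutation p = 0.5). After thinning, the Ctsk shares were 39.4% and 32.6%. Summed Ctsk was 106, 85.6 and 274 CPM on the CA-ERBB2 plates and 84.0, 61.4 and 38.9 CPM on the Control plates. All 3 CA-ERBB2 sums lay above all 3 Control sums, an order that 4.2% of genes tested also had, and the log2 fold change was 1.33 ± 0.59 (edgeR, SE) with an unadjusted p of 0.0476 and an adjusted p of 0.911. Without CA-ERBB2 plate 3 it was 0.65. Macrophage-like cells held 0.659% of the Ctsk counts of CA-ERBB2 cells and 2.99% of those of Control cells. Ctsk was not among the genes that chose those cells, so this share is not set against those of the members that were.

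Across the transcriptome edgeR called 1 of 21416 genes higher in CA-ERBB2 (0.00467%, Serpinb2, a plasminogen activator inhibitor, with the adjusted p below 0.05 and the log2 fold change over 1) and 0 genes lower (0.0%), and 0 of the 10 members. Unadjusted p was under 0.05 for 2 members, Ptprc and Ctsk, against 1106 genes (5.16%). DESeq2, which called 235 of 20463 genes, also called 0 of the 10. The fixed lists around the members gave 0 called genes each. Of 30 other macrophage markers, all tested, 0 had an unadjusted p under 0.05 with a higher level and 1 with a lower level, and their median log2 fold change was -0.56 beside -0.02 over all genes. Of 15 other osteoclast genes 10 were tested and 0 reached that level, with a median of 0.21. Of 9 genes for myeloid growth factors and osteoclast signals 7 were tested, of which 1 was higher and 0 lower at that level, with a median of 1.02. Mesenchyme markers, 11 tested, had 2 higher and 0 lower and a median of 0.21, lysosomal genes of most cells, 18 tested, had 1 higher and 0 lower and a median of -0.38, and the 8 leukocyte and macrophage members had a median of -1.21. Medians of other cell types' lists in the same fit were larger in size for some and smaller for others. Smaller ones were those of melanocyte and glia markers (-0.85) and of supporting cell and epithelial markers (0.41), each with 0 genes at an unadjusted p under 0.05 (edgeR). The median of 6 endothelial markers (-1.08) was also smaller in size, with 0 higher and 1 lower at that level. Larger in size were the medians of the lists that follow. Lymphocyte markers, 3 of 10 tested, had 1 higher and 0 lower and a median of 5.29. Of 6 erythroid markers 0 were higher and 5 lower at an unadjusted p under 0.05 (edgeR), with a median of -4.47. Of 6 hair cell markers 0 were higher and 2 lower, with a median of -1.96.

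Co-detection asks whether these genes came from the same cells. With 1 count as the criterion, at least 3 of the 8 leukocyte and macrophage members (all but Acp5 and Ctsk) were found together in 6, 9 and 3 CA-ERBB2 cells against in 10, 4 and 6 Control cells, 10.2% ± 5.08 against 11.3% ± 5.18 (SD, n = 3 plates, exact permutation p = 0.8). None of the 8 was found in 12, 37 and 40 CA-ERBB2 cells against 21, 43 and 38 Control cells. At 100 CPM, at least 3 of the 8 were present in 1, 5 and 1 CA-ERBB2 cells against 2, 4 and 3 Control cells, 3.95% ± 3.91 against 5.08% ± 1.69 (exact permutation p = 0.8). These 16 cells are called macrophage-like here, a criterion set after the data had been seen and used only to describe. Few cells lay near it, since 311 cells had 0 of the 8 members at 100 CPM, 25 had 1, 2 had 2 and 1 had 3. With wells A12 to D12 left out, 0, 5 and 0 CA-ERBB2 cells against 2, 1 and 3 Control cells remained, all 5 CA-ERBB2 cells on 1 plate.

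**Figure D2:**
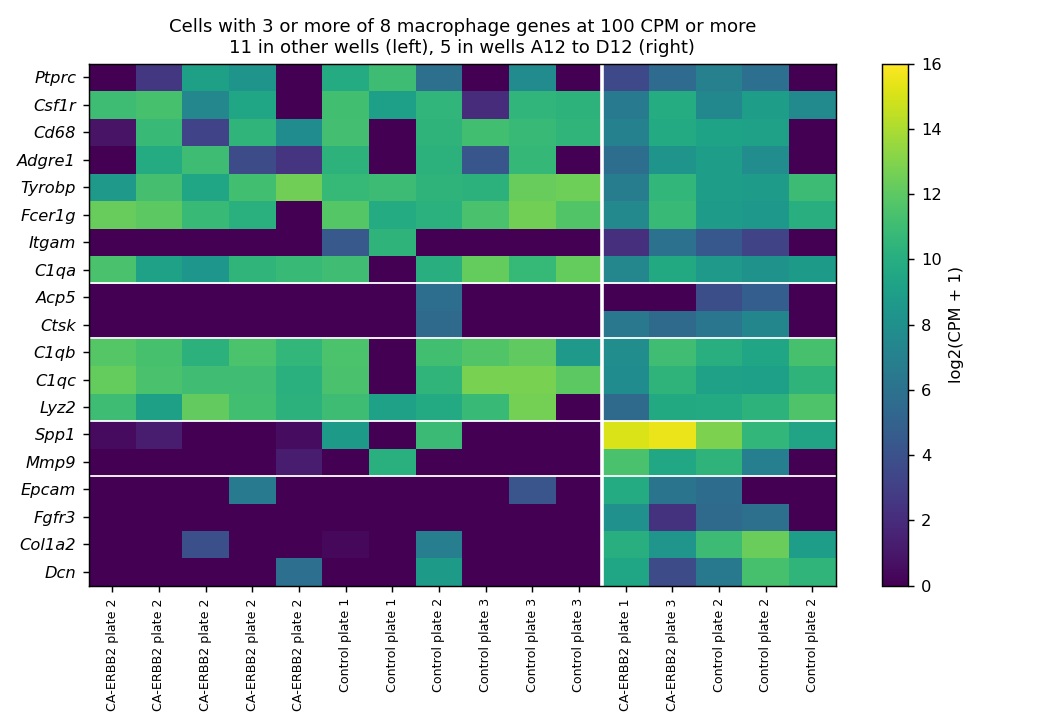
Levels of the 10 members and of other genes (rows) in the 16 macrophage-like cells (columns, named by genotype and plate), as log2(CPM + 1) from 0 to 16 on the colour scale. Of the 11 cells left of the vertical line, 10 hold C1qb and C1qc and 10 hold Lyz2, and few hold Epcam, Col1a2 or Dcn, while most of the 5 cells of wells A12 to D12 on the right hold all of these.

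The 11 macrophage-like cells outside wells A12 to D12 held most of the leukocyte and macrophage members at once. Levels of these members are a description only, since they chose the cells. Tyrobp was present in all 11, from 398 to 5828 CPM with a median of 2021, Fcer1g in 10 with a median over the 11 cells of 2670 CPM, and C1qa in 10 with a median of 1701 CPM. Csf1r and Cd68 were detected in 10 each, Adgre1 in 8, Ptprc in 7 and Itgam in 2. The 8 members together summed to between 5630 and 17873 CPM per cell. Of 30 other macrophage markers that were not used to choose the cells, all 30 were detected in at least 1 of the 11, and each cell had between 8 and 27 of them at 10 CPM or more, with a median of 15. By comparison the median over the 126 CA-ERBB2 cells in other wells without Spp1 and Mmp9, which include 5 of the 11, was 0 of 30. C1qb, C1qc and Lyz2 (lysozyme) were each detected in 10 of the 11, and Pf4 and Mrc1 (the mannose receptor CD206), which mark resident macrophages, in 9 each.

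Of the 13 supporting cell and epithelial markers, 8 were detected in at least 1 of those 11 cells. Fgfr3, whose promoter drives the iCre, was detected in 0 of 11 (a limit of 27.3% from 3 counts), as was Erbb2, including 0 of the 5 CA-ERBB2 cells (a limit of 60.0%). Over all wells Erbb2 was detected in 82 of 177 CA-ERBB2 cells (46.3%) and 51 of 177 Control cells (28.8%). These totals include wells A12 to D12 and the gene-rich first plates, whereas all 5 CA-ERBB2 cells came from plate 2. The sets are thus unlike in depth, and no difference in Erbb2 is read from them. Outside wells A12 to D12 as a whole, Fgfr3 was detected in 86 of 330 cells (26.1%). Epcam, an epithelial adhesion molecule, was detected in 2 of the 11 and in 107 of the 330 (32.4%). S100a1, a calcium-binding protein gene and the most abundant of the 13, was detected in 5 of the 11, at up to 1579 CPM, and in 164 of the 330 (49.7%), and S100b in 4 of the 11. Col1a2 was detected in 3 of the 11 and Dcn in 2. The median sum of 13 supporting cell markers was 53.9 CPM per cell and that of 11 mesenchyme markers 49.4 CPM. The cells had between 1659 and 7126 genes with a median of 3241, close to the 3244 of all wells but A12 to D12, so these were not the gene-rich libraries.

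One of the 11 differed from the rest. This Control cell of plate 1 had Itgam at 1345 CPM, Ptprc at 2076 CPM and Tyrobp at 2021 CPM but 0 counts of Cd68, Adgre1, C1qa, C1qb and C1qc. It also had S100a8 at 13925 CPM and S100a9 at 20389 CPM, the calprotectin genes that abound in neutrophils, and Mmp9 at 1144 CPM with Spp1 at 0. The leading genes of this cell thus go against the name macrophage-like, and it is counted with the others only by the criterion. No other of the 11 had a count of any of the 10 neutrophil and mast cell markers.

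The osteoclast members were scarce in the 11 macrophage-like cells outside wells A12 to D12, while Ctsk was detected in 4 and Acp5 in 2 of the 5 within those wells. Among the 11, Acp5 and Ctsk were detected in 1 cell each, at 53.4 and 44.4 CPM in the same Control cell of plate 2, which also had Spp1 at 1954 CPM and Mmp9 at 0. Of the 15 other osteoclast genes on the list, 9 were at 0 in the 11 cells (Calcr, Dcstamp, Ocstamp, Oscar, Atp6v0d2, Itgb3, Car2, Siglec15 and Mmp14), among them the genes of the fusion proteins DC-STAMP and OC-STAMP. The other 6 were detected, including Ostm1 in 5 cells, Tcirg1 in 4, Atp6v1c1 in 3 and Nfatc1 in 2, and the 15 genes summed to at most 1971 CPM in a cell. Tcirg1 and Atp6v1c1 encode proton pump subunits, and each of these 4 genes was detected in between 90 and 137 of all sorted cells. Spp1 was detected in 5 of the 11 and reached 100 CPM in 2, and Mmp9 was detected in 2 and reached 100 CPM in 1, and no cell of the 11 had both at 100 CPM.

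Outside the macrophage-like class 338 cells remained. Csf1r was still detected in 100 of them at a median of 11.8 CPM where detected, and in 36 of the 100 none of the other 7 leukocyte and macrophage members was present. Cd68 was detected in 81, at a median of 17.1 CPM, and alone in 23. By plate, Csf1r was present in 38, 12 and 10 of the remaining CA-ERBB2 cells and 25, 6 and 9 of the Control cells. These low levels were most common on the gene-rich first plates of both genotypes. Tyrobp was detected in 18 of the 338, C1qa in 14, Ptprc in 11, Adgre1 in 10 and Itgam in 5. In 5 further cells 1 or 2 members made up a high level with no other of the 8 detected, such as a CA-ERBB2 cell of plate 3 with Tyrobp at 11481 CPM and a CA-ERBB2 cell of plate 3 with Fcer1g at 7247 CPM and Spp1 at 179750 CPM, and the 5 cells, which summed to 1000 CPM or more, had between 0 and 3 of the 30 other macrophage markers. No doublet caller was run, and these 5 were chosen after their values were seen.

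Cells with Spp1 and Mmp9 both at 100 CPM or more numbered 54, of which 49 were CA-ERBB2 cells (4, 21 and 24 by plate) and 5 Control cells (1, 2 and 2). The cells were chosen by these genes, so their levels are a description only, and 5 cells lay just outside (50 to under 100 CPM for the lower gene) and 4 just inside (100 to under 200 CPM). In wells A12 to D12 lay 10 of the 49, and 39 lay elsewhere. The leukocyte and macrophage members were rare in the 39 and common in the 10, so the wells are kept apart.

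In the 39 CA-ERBB2 cells with Spp1 and Mmp9 outside wells A12 to D12, median Spp1 was 155464 CPM and median Mmp9 5751 CPM. Tyrobp, Itgam and Acp5 were detected in 0 of 39 cells, for which the limit is 7.69% of cells. Ptprc, Adgre1 and C1qa were detected in 1 cell each (2.56%, exact 95% interval 0.065 to 13.5%), Fcer1g in 4 (10.3%), Cd68 in 6 (15.4%, 5.86 to 30.5%) and Csf1r in 8 (20.5%, 9.30 to 36.5%). At least 3 of the 8 were together in 1 of 39 cells with 1 count as the criterion and in 0 at 10 CPM or 100 CPM. The highest number of the 30 other macrophage markers at 10 CPM in any of the 39 was 3, and 17 of the 30 were at 0 in all 39, while Lyz2, C1qb and C1qc were each detected in 1 cell. The 8 members summed to 0 CPM in the median cell of the 39 and to 932 CPM in the highest.

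The 126 other CA-ERBB2 cells outside those wells gave the setting for these shares. Tyrobp was detected in 9 of them (7.14%), C1qa in 5, Ptprc in 5, Adgre1 in 4, Itgam in 1 and Acp5 in 3. Csf1r was present in 46 (36.5%), Cd68 in 34 (27.0%) and Fcer1g in 12 (9.52%), and at least 3 of the 8 in 8 cells (6.35%). The intervals of the shares overlapped those of the 39 for the 8 leukocyte and macrophage members. The pooled shares mix plates of unlike depth, since the gene-rich plate 1 supplied 53 of the 126 cells but 2 of the 39. On plate 2, Csf1r was in 2 of 17 cells with Spp1 and Mmp9 and 10 of 38 others, and Cd68 in 1 of 17 and 6 of 38. On plate 3 the order was the opposite, with Csf1r in 4 of 20 (20.0%) and 3 of 35 (8.57%), Cd68 in 4 of 20 and 1 of 35, Fcer1g in 4 of 20 and 1 of 35 and Adgre1 in 1 of 20 and 0 of 35. Tyrobp was in 0 cells of the class on each plate, and in 1 of 53, 6 of 38 and 2 of 35 of the others. These shares of cells were given no test, since cells of a plate are not replicates.

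**Figure D3:**
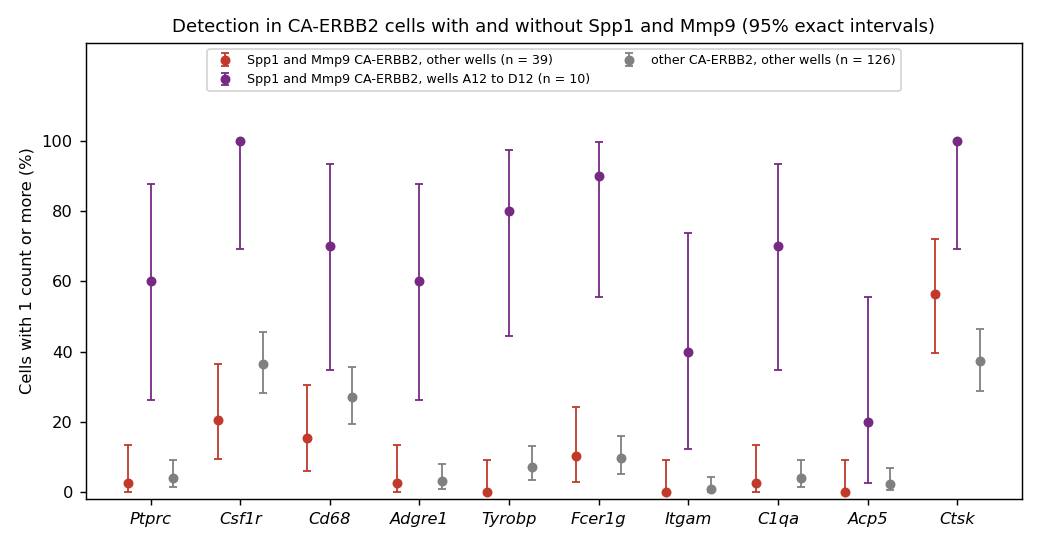
Share of CA-ERBB2 cells with 1 count or more (y axis, %) for each gene (x axis) in cells with Spp1 and Mmp9 at 100 CPM or more outside wells A12 to D12 (red), in those wells (purple) and in the other CA-ERBB2 cells outside those wells (grey), with exact 95% binomial intervals. Tyrobp, Itgam and Acp5 are at 0% in the 39 red cells, and all 10 genes are highest in the 10 purple cells.

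The 10 CA-ERBB2 cells with Spp1 and Mmp9 in wells A12 to D12 held many more of the members. Csf1r was detected in 10 of 10, Fcer1g in 9, Tyrobp in 8, Cd68 and C1qa in 7, Ptprc and Adgre1 in 6, Itgam in 4 and Acp5 in 2, and at least 3 of the 8 were together in 8 of 10. Epcam, Fgfr3, S100a1, Col1a2 and Dcn, genes of epithelium, supporting cells and mesenchyme, were detected in all 10 as well. Co-detection was also common in these wells without regard to Spp1 and Mmp9. At least 3 of the 8 members were together in 17 of all 24 (70.8%) and in 8 of the 12 Control wells (66.7%). The 24 include 13 wells of both genotypes with Spp1 and Mmp9, of which 11 (84.6%) had at least 3 of the 8. The median number of the 8 detected was 7 in those 13 against 4 over all 24, so the breadth was greater where Spp1 and Mmp9 were present. The part that the number of genes in these wells has in the co-detection was not tested. All 4 cells that were macrophage-like and also had Spp1 and Mmp9 at 100 CPM lay in these wells.

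**Figure D4:**
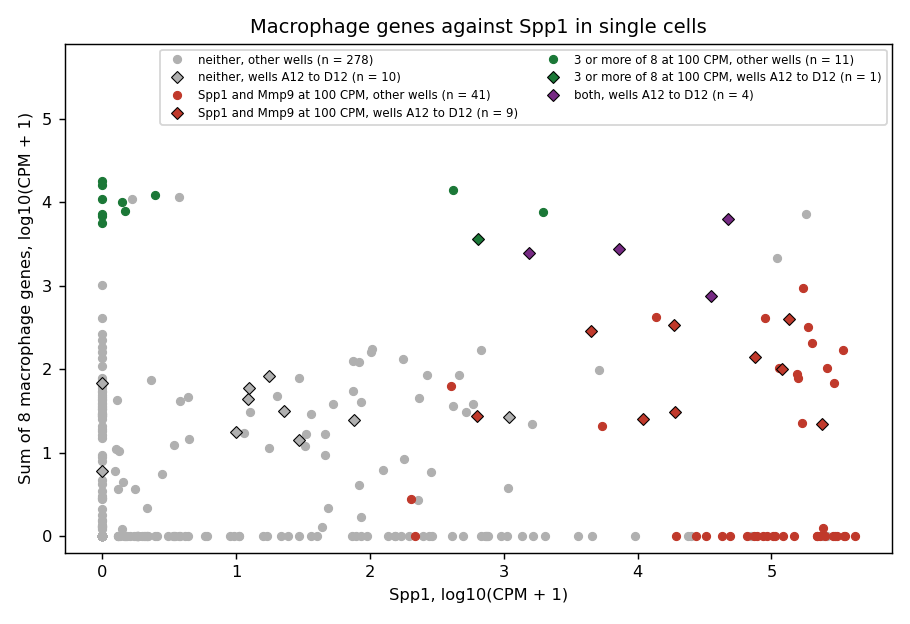
Sum of the 8 leukocyte and macrophage members (y axis, log10(CPM + 1)) against Spp1 (x axis, log10(CPM + 1)) in all cells, where each point is a cell, diamonds mark wells A12 to D12 and colours mark cells with Spp1 and Mmp9 at 100 CPM (red), macrophage-like cells (green) and both (purple). The 11 green circles lie high on the y axis with Spp1 at or near 0 in most, many red circles lie at 0 on the y axis, and the 4 purple points are all diamonds.

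Summed by plate, cells with Spp1 and Mmp9 were compared with the other CA-ERBB2 cells of the same plates, with the plate as a block. No member was called by edgeR among the 9 that could be tested, with an adjusted p of 1.00 for each, against 1 higher gene (0.0047%, again Serpinb2) and 0 lower genes (0.0%) of 21291, and 892 genes (4.19%) at an unadjusted p under 0.05. Acp5 was too low to test. The 8 leukocyte and macrophage members had a median log2 fold change of 2.69, beside 0.11 over all genes. All 30 other macrophage markers were tested and 0 were called, with a median of 5.32. Among these 30, 2 were higher and 0 lower at an unadjusted p under 0.05 (edgeR). Wells A12 to D12 were included in these sums, and the list medians were not computed without them. Tyrobp was 21.6, 10.1 and 85.3 CPM in cells with Spp1 and Mmp9 on plates 1, 2 and 3, and 0.226, 264 and 203 CPM in the others. Every plate value of cells with Spp1 and Mmp9 lay below every value of the others for 0 of the 9 members, against 5.39% of genes tested. The order of the classes turned over between plate 1 and the other plates, and the log2 fold change was -0.90 ± 2.27 (edgeR, SE). Csf1r was 34.7, 38.5 and 65.8 CPM against 7.52, 144 and 1.40 CPM, with a log2 fold change of 2.07 ± 1.68, and Cd68 26.4, 19.9 and 61.4 CPM against 9.58, 69.7 and 0.294 CPM, with 1.80 ± 2.01. On plate 2 alone the other cells were higher for both. The 7 macrophage-like CA-ERBB2 cells entered these sums, 5 among the other cells of plate 2 and 1 each, from wells A12 to D12, among the cells with Spp1 and Mmp9 of plates 1 and 3.

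Adgre1 and C1qa had no counts in the other cells of plates 1 and 3, so their fitted fold changes depend on the prior count and are not bounds. C1qa was 39.5, 10.9 and 45.9 CPM in cells with Spp1 and Mmp9 against 0, 170 and 0 CPM, and Adgre1 16.1, 2.51 and 24.6 CPM against 0, 34.0 and 0 CPM. DESeq2 with the same block called both higher in the Spp1 and Mmp9 cells, at adjusted p values of 1.47e-06 for C1qa and 1.24e-05 for Adgre1, and Itgam at 0.0163, among 686 genes it called. With wells A12 to D12 left out, the edgeR log2 fold changes were -0.30 for C1qa and -0.11 for Adgre1, so the direction depended on those wells. In the 39 cells outside those wells each of these genes was detected in 1 cell or fewer.

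Ctsk ran with other genes. In cells with Spp1 and Mmp9 it was 204, 81.0 and 406 CPM on plates 1, 2 and 3 against 79.0, 71.4 and 13.6 CPM in the other CA-ERBB2 cells, with every value of the first class above every value of the second, an order that 5.01% of genes tested also had. The log2 fold change was 1.99 and did not pass the test. Ctsk was detected in 22 of the 39 cells with Spp1 and Mmp9 outside wells A12 to D12 (56.4%, exact 95% interval 39.6 to 72.2%) and in 47 of the 126 others (37.3%). By plate the numbers were 2 of 2 and 33 of 53, 7 of 17 and 9 of 38, and 13 of 20 and 5 of 35. Mesenchyme markers varied in the 39 cells. Col1a2 (a chain of type I collagen) was detected in 32 (82.1%) and in 90 of the 126 others (71.4%). Col1a1 was detected in 31 of the 39 and in 153 of all sorted cells, and Col3a1 in 23 and 196. Dcn was detected in 13 of the 39 and in 184 of all sorted cells, and Pdgfra in 10 and 152. Summed by plate with wells A12 to D12, the 11 mesenchyme markers had a median log2 fold change of 1.09, beside 0.11 over all genes. Of these markers 3 were higher and 1 lower at an unadjusted p under 0.05 (edgeR), and 0 were called.

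The split of Ctsk-positive and Ctsk-negative cells by mesenchyme markers was seen on every plate. Outside wells A12 to D12, at least 3 of the 11 mesenchyme markers reached 10 CPM in 32 of 35 Ctsk-positive and 9 of 20 Ctsk-negative cells of CA-ERBB2 plate 1, in 13 of 16 and 8 of 39 on plate 2 and in 17 of 18 and 8 of 37 on plate 3. On the Control plates the numbers were 26 of 29 and 12 of 26, 8 of 8 and 13 of 47, and 3 of 5 and 8 of 50. The share was higher in Ctsk-positive cells on 6 of 6 plates. The median number of the 13 supporting cell and epithelial markers at 10 CPM was higher in Ctsk-positive cells on some plates as well. It was 2 against 1 on CA-ERBB2 plate 2, 3.5 against 0 on Control plate 2 and 5 against 1 on Control plate 3. That median was equal on CA-ERBB2 plate 3 and Control plate 1, and lower on CA-ERBB2 plate 1, at 3 against 7.5. Ctsk-positive cells also had more genes on 5 of the 6 plates, for example a median of 6236.5 against 273 on Control plate 2, but not on CA-ERBB2 plate 1, where medians were 10095 and 10129.5 genes. The part of depth in this was not tested further. Outside those wells Ctsk was present in 111 of 330 cells. Among cells positive for another member it was present in 49 of 91 for Csf1r, 47 of 76 for Cd68, 14 of 27 for Fcer1g, 7 of 10 for Acp5, 5 of 20 for Tyrobp, 4 of 13 for Ptprc, 3 of 16 for C1qa, 2 of 4 for Itgam and 1 of 12 for Adgre1. The members thus differed among themselves in how often Ctsk was found with them.

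**Figure D5:**
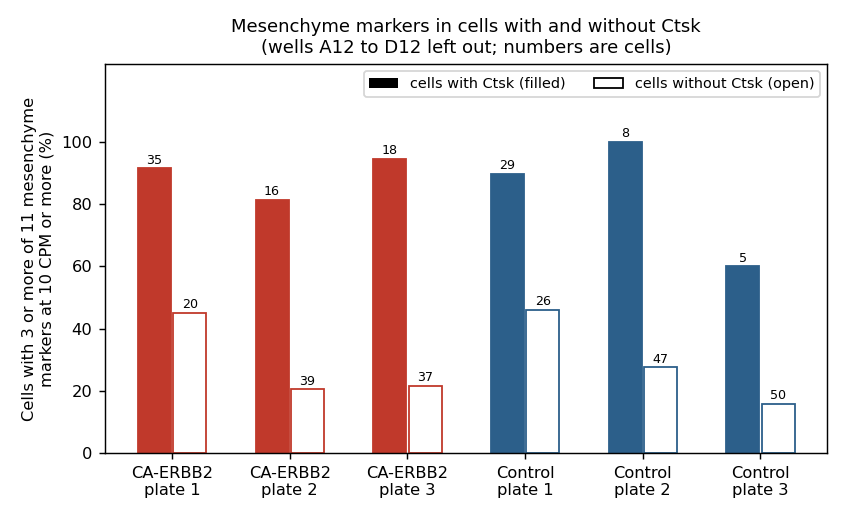
Share of cells with at least 3 of 11 mesenchyme markers at 10 CPM or more (y axis, %) among cells with Ctsk (filled bars) and without Ctsk (open bars) on each plate (x axis), wells A12 to D12 left out, with the number of cells above each bar. The filled bar is higher on all 6 plates, from 60.0% to 100% against 16.0% to 46.2%.

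The genes whose levels went most closely with each member across all cells differed between Ctsk and the leukocyte members. Pearson's r of log2(CPM + 1) is given as a description without a p, since cells share plates and depth and the counts are sparse. C1qa went with Aif1 (0.89), C1qc (0.87) and Trem2 (0.84), and Tyrobp with C1qa, Rac2 and Aif1 (0.81 each). Adgre1 went with Tlr7 (0.88), C3ar1 (0.83) and Cd36 (0.83), Ptprc with Cd53 (0.80), Pld4 (0.76) and Tlr7 (0.76), and Fcer1g with Aif1 (0.78), Tyrobp (0.76) and Rac2 (0.74). Itgam went with Sla (0.78), Trim30a (0.77) and Was (0.76). For the widely detected pair the values were lower, at 0.64 for Csf1r with Aif1 and 0.62 for Cd68 with C3ar1. Ctsk instead went with Pcolce (0.68), which encodes an enhancer of procollagen processing, Emilin1 (0.66), which encodes an elastic fibre protein, and Pou3f4 (0.65), a transcription factor of otic mesenchyme, and its r with the 8 leukocyte and macrophage members ran from -0.02 for Tyrobp to 0.16 for Csf1r and 0.21 for Cd68. For Acp5 the highest r was 0.46, and no gene is named for it.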

How the data were processed

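Single GFP+ cells were sorted from dissociated cochleae into plates, and libraries were made with SMART-Seq Single PLUS, which keeps no molecular identifiers. The authors deposited 1 table of read counts per gene for each cell, 177 per genotype. Per the labels, reads were demultiplexed with bcl2fastq 2.19.1, aligned to GRCm38 with STAR 2.7.6a and counted over exons, by gene name and by strand, with featureCounts of Subread 2.0.1. The submitters' notes also list R 4.0.5 and Seurat 4.0.4. Doublets were removed by scatter at the sort, and no caller was run on the counts.

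Counts were used as deposited. CPM is a gene's counts scaled to the same total in every cell. A gene was detected in a cell with 1 count or more, and shares were also computed after thinning each cell to 100000 counts with a fixed seed. Cells are not replicates, so shares were averaged over the 3 plates of a genotype and compared by exact two-sided permutation. Counts summed by plate were tested across all genes with edgeR 4.0.16 in R 4.3.3 (filterByExpr, TMM, quasi-likelihood, Benjamini-Hochberg). The standard error is the log2 fold change divided by the square root of its F value. A gene was called where the adjusted p was below 0.05 and the log2 fold change exceeded 1 in size. Cells with Spp1 and Mmp9 at 100 CPM or more were compared with other CA-ERBB2 cells with the plate as a block. Classes of cells are described with exact (Clopper-Pearson) 95% binomial intervals, which cover counting error only, and the limit for a share of 0 is 3 cells of the total.

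Named genes were the 10 members, Spp1, Mmp9 and Erbb2, the 3 genes most correlated with each member where r passed 0.5 (genes detected in 10 or more cells, log2(CPM + 1)), and up to 6 genes of each fixed list by mean CPM. Other names were chosen after their values were seen: Serpinb2, the osteoclast genes at 0 and the genes that overlap a member. The members and lists were chosen with earlier results of these data known. The scripts were tested on simulated data. The alternatives tried were a fit by DESeq2 1.42.0, the plate block added or removed, genes of low count kept, other Spp1 and Mmp9 levels, cells of low depth or with 20% or more mitochondrial counts left out, wells A12 to D12 left out and each plate left out. Leaving out macrophage-like cells was added after seeing the data.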

Additional observations from a re-analysis of the deposited data

How the results depend on the processing

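The call of 0 members was kept in every alternative run for the genotypes, and in every one but DESeq2 for Spp1 and Mmp9 cells, where DESeq2 called 3 members. Depth limited the values: 35 cells had fewer than 100000 counts, and members at a few counts per plate moved most. Between genotypes, signs turned without macrophage-like cells (Csf1r 1.12, Adgre1 1.99, Tyrobp 0.16, Fcer1g 2.00, Acp5 0.64), without cells of low depth or high mitochondrial share (Fcer1g 0.062) and without wells A12 to D12 (Acp5 0.11), all as log2 fold changes of CA-ERBB2 over Control. Leaving out a plate in turn gave ranges of -1.24 to 0.28 for Csf1r, -1.21 to 0.35 for Tyrobp, -0.76 to 0.98 for Fcer1g, -4.80 to 1.03 for Itgam and -5.83 to 1.72 for Acp5. For Spp1 and Mmp9 cells over other CA-ERBB2 cells, signs turned at 1000 CPM (Ptprc -1.68, Csf1r -0.30, Cd68 -0.17, Adgre1 -0.53, Fcer1g -0.96, Itgam -5.44, C1qa -3.07), without wells A12 to D12 (Ptprc -5.11, Csf1r -0.37, Cd68 -0.13, Adgre1 -0.11, Fcer1g -7.38, C1qa -0.30), without macrophage-like cells (Tyrobp 4.22, Fcer1g -0.39) and without both (Fcer1g -6.72). Leaving out a plate gave -3.04 to 2.71 for Tyrobp and -2.85 to 3.24 for Fcer1g there. With the criterion of 2 of 8 members in place of 3, the difference in the share of cells was 6.21 percentage points (exact permutation p = 0.6). Genes called between genotypes were 1 in the edgeR fit, 235 by DESeq2, 285 with no filter on low counts and 0 to 2 without a plate. For Spp1 and Mmp9 cells they were 1 in the edgeR fit, 686 by DESeq2, 105 with no filter, 34 at 1000 CPM, 0 at 10 CPM, 3 without wells A12 to D12 and 4 without cells of low depth or high mitochondrial share. The causes were not tested.

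Same-numbered plates of the genotypes were not treated as pairs in the main fit. The correlations of their deviations were 0.262, 0.065 and 0.032 for plates 1, 2 and 3. The value for plates 1 was the highest of all pairs, beside -0.147 and -0.085 for CA-ERBB2 plate 1 with Control plates 2 and 3. CA-ERBB2 plate 3 went best with Control plate 2. Whether same-numbered plates shared a sort was not tested. With the plate number as a replicate block, Ctsk was 1.15 and Ptprc -2.82 between genotypes, 0 members and 1 gene were called. Classes of cells on 1 plate share that plate, and without the replicate block Csf1r was -0.13, Fcer1g -1.19 and C1qa -0.81 in Spp1 and Mmp9 cells, with 2 genes called. Where a gene had too few counts under an alternative, as for Acp5 in the class comparison, no value was computed.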
